A study of Saccharomyces cerevisiae with 11 samples.

Results

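Ribosome biogenesis factors build ribosomes without being part of the finished particle. In the yeast nucleolus, RNA polymerase I makes 1 long precursor of the ribosomal RNAs (rRNA). The small subunit processome, built on the U3 small nucleolar RNA and on the complexes UTP-A, UTP-B and UTP-C, folds and cuts the stretch that becomes the 40S subunit. Other factors mature the 60S subunit, small nucleolar ribonucleoproteins (snoRNPs) guide modification of the rRNA, and the nuclear exosome trims and degrades spacer RNA. In budding yeast the genes of these factors form a large co-regulated group that is induced by nutrients through the TOR kinase and repressed under stress.

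The genes described here are the 56 S. cerevisiae genes whose symbols consist of UTP, NOP, RRP or NOC and a number, out of 5449 genes measured. They comprise 18 UTP, 17 NOP, 18 RRP and 3 NOC genes on 14 of the 16 nuclear chromosomes. All 56 genes of the R64 gene table with such symbols were measured, each by 1 probe set. By their known roles they are 6 subunits of UTP-A, 4 of UTP-B, 2 of UTP-C, 5 snoRNP core proteins, 16 other 40S factors, 7 exosome subunits and 16 factors of the 60S subunit. Genes of the same machinery with other names, and its regulators, were kept as a wider list of 118 genes, of which 116 were measured.

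The study set 4 samples of Saccharomyces cerevisiae expressing CFTR, a human chloride channel, from the plasmid pRS426PPGK-CFTR-3HA against 7 samples with the vector pRSGPD426, so that the plasmids differ in promoter as well as in CFTR. Both groups grew in selective media at 26 degrees and were harvested in mid log phase, and the labels used here name no strain. RNA was hybridised to Affymetrix arrays. Levels are log2 of the deposited intensity, in which every array averages 1, and differences are CFTR minus vector on that log2 scale. A level can be followed across arrays for 1 gene but is not compared between genes. In a culture, less of an RNA per cell and fewer cells making it cannot be told apart.

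Running sample codes in the labels are 7 to 10 for the CFTR arrays, 3 to 5 for vector replicates 1 to 3 and 11 to 14 for vector replicates 4 to 7, so that an effect of code range and one of CFTR cannot be told apart. CFTR replicates 1 to 4, numbered here because their labels give no replicate, carry codes 10, 7, 8 and 9. The vector samples are marked as re-analysed. No label ties an array to its own culture, so the p-values rest on array-to-array spread that may be partly technical. The vector arrays did not form 1 cloud. Over all genes the SD of the difference between 2 arrays was 0.11 for vector replicates 1 and 2, 0.10 to 0.13 among vector replicates 5 to 7, 0.15 to 0.29 among the CFTR arrays, and up to 0.67 among the vector arrays. Over the 56 factors alone, vector replicate 3 differed from the CFTR arrays by an SD of 0.11 to 0.14, little more than the CFTR arrays differed from each other (0.08 to 0.12). Vector replicates 1 and 2 stand apart in these genes, and results are therefore also given without them.

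No ribosome biogenesis factor of the 56 passed the test between CFTR and all vector arrays (limma, adjusted p under 0.05), where 0.918% of all genes were called. None had an unadjusted p under 0.05, beside 18.2% of all genes, and no other tool was run. The smallest p was 0.0519, that of NOP6, a 40S assembly factor, and the smallest adjusted p was 0.28. In no factor did the CFTR arrays all lie above or all lie below the vector arrays, a pattern seen in 2.4% (above) and 3.34% (below) of all genes.

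The differences leaned to lower values in CFTR, with 7 of the 56 (12.5%) above 0, beside 42.2% of all genes. After quantile normalization 12 were above 0 (21.4%, beside 50.8% of all genes), and after median centring 15 (26.8%, beside 56.1%). The median of the 56 was -0.15, beside -0.04 over all genes; it was -0.09 after quantile normalization and -0.08 after median centring. Standard errors ran from 0.07 to 0.34 and came mostly from the vector group. The SD of a factor had a median of 0.11 over the 4 CFTR arrays and of 0.47 over the 7 vector arrays, beside 0.08 in CFTR and 0.25 in vector over all genes. The vector SD was the larger in 56 of 56 factors and in 88.9% of all genes.

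**Figure D1:**
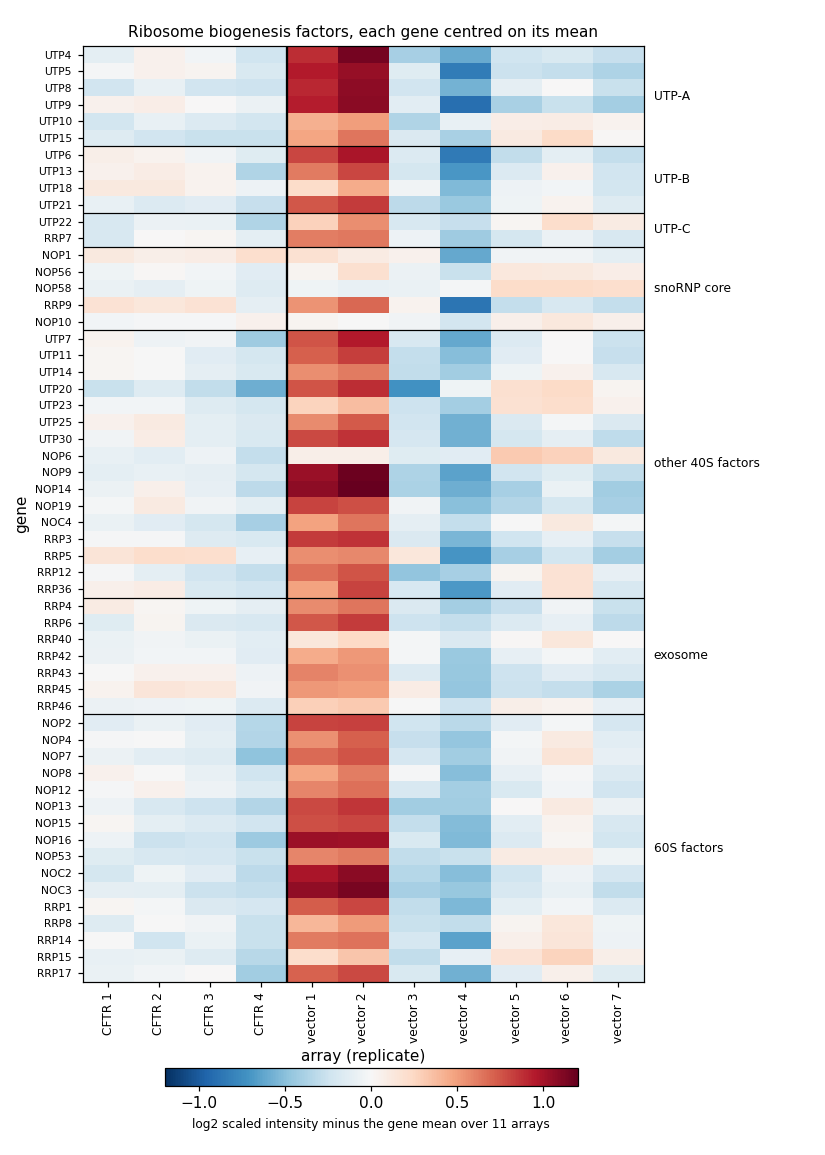
Level of each of the 56 ribosome biogenesis factors (rows, grouped by role) in each array (columns, CFTR left of the line, vector right of it), as log2 scaled intensity minus the mean of the gene over the 11 arrays. Vector replicates 1 and 2 are the highest columns in 49 of 56 rows and vector replicate 4 is the lowest in 43, and the 4 CFTR arrays lie between them in most rows.

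The spread had a simple shape. The mean level of the 56 factors was 0.18, 0.20, 0.14 and 0.0007 in CFTR replicates 1 to 4. In vector replicates 1 to 7 it was 0.82, 0.91, 0.03, -0.23, 0.13, 0.24 and 0.06. Vector replicates 1 and 2 were far above every other array, vector replicate 4 was the lowest, and CFTR replicates 1 to 3 lay among the remaining vector arrays, with CFTR replicate 4 just below them. Part of this followed the whole array, since the median of all genes was 0.05 and 0.10 in vector replicates 1 and 2, and -0.32 to -0.24 in the other 9 arrays. Less each array's median, the mean of the factors was 0.30 to 0.44 in the CFTR arrays, and in the vector arrays 0.77 and 0.81 in replicates 1 and 2, 0.045 in replicate 4 and 0.33 to 0.52 in the others. In 49 of the 56 factors vector replicates 1 and 2 were the 2 highest of the 11 arrays, beside 47.8% of all genes. In 43 vector replicate 4 was the lowest, beside 20.8% of all genes. These arrays were singled out after their values were seen, and the counts are a description.

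Lists of growth and stress genes moved with the same arrays. The 20 general stress genes, targets of the activators Msn2 and Msn4, had a mean level of 1.59 to 1.85 in the CFTR arrays. In the vector arrays it was 0.37 and 0.41 in replicates 1 and 2, 1.78 and 1.85 in replicates 3 and 4, and 1.17 to 1.33 in replicates 5 to 7. The arrays highest in the factors were thus the lowest in stress genes. The 128 cytosolic ribosomal protein genes averaged 3.26 to 3.32 in the CFTR arrays, against 2.95 and 2.90 in vector replicates 1 and 2, 3.14 in vector replicate 4 and 3.30 to 3.33 in the other vector arrays. They were lowest where the factors were highest. The 55 mitochondrial ribosomal protein genes split the arrays differently, with 0.66 in CFTR replicate 1 and -0.03 to 0.23 in the other CFTR arrays, and 0.16 and 0.33 in vector replicates 3 and 4 and 0.66 to 0.76 in the other vector arrays. The part of growth state or of the sample codes in the levels of the factors was not tested.

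**Figure D2:**
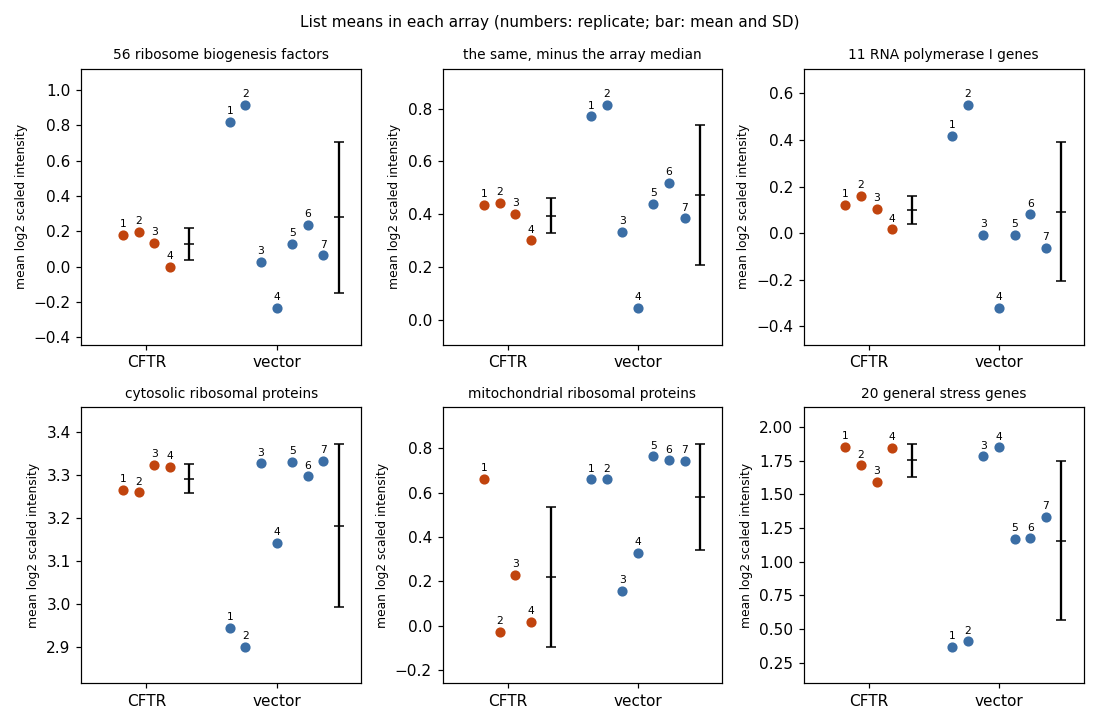
Mean log2 scaled intensity of gene lists in each array; points are arrays with their replicate number (CFTR left, vector right), and bars give the mean and SD of each group. Vector replicates 1 and 2 are highest in ribosome biogenesis factors (0.82 and 0.91) and lowest in general stress genes (0.37 and 0.41), and the CFTR arrays are close together in both lists.

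The choice of vector arrays set the direction; the comparisons that follow share the CFTR arrays. With vector replicates 1 to 3 as controls the median difference of the 56 factors was -0.49, beside -0.15 for all genes, and 54 of 56 were below 0. None passed (limma), in a comparison that called 0.0184% of all genes, and 20 of the 56 had an unadjusted p under 0.05, beside 27.9% of all genes. With vector replicates 4 to 7 as controls the median was 0.08, beside 0.04 for all genes. There 8 factors rose and 5 fell, which is 23.2% of the 56, where 43.9% of all genes were called (26.9% higher and 17.0% lower). Against vector replicates 3 to 7, without the pair that stands apart, the median was 0.09, beside 0.04 for all genes. In that comparison UTP9 (0.44, SE 0.14, adjusted p = 0.0499) and RRP43 (0.25, SE 0.07, adjusted p = 0.043) rose and none fell, beside 18.4% of all genes called (12.3% higher and 6.11% lower). Without vector replicate 3, UTP20 alone of the 56 fell and none rose, beside 9.56% of all genes called (4.04% higher and 5.52% lower).

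The vector arrays were also compared with each other. In vector replicates 4 to 7, relative to vector replicates 1 to 3, 8 of the 56 factors fell and none rose, beside 20.3% of all genes lower and 6.83% higher (27.1% in all). The median difference was -0.58, beside -0.19 for all genes. The 8 were UTP5, UTP9, UTP6, RRP7, RRP9, NOP19, RRP5 and RRP45, with differences of -1.13 to -0.62. This count rested on single arrays. It was 0 without vector replicate 1 or 2 (with 3.06% and 2.7% of all genes called) and 49, 48 of them lower, without vector replicate 3 (with 70.9%). Without vector replicate 4, 5, 6 and 7 it was 4, 2, 2 and 1 (with 16.6%, 5.51%, 6.75% and 4.18%).

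**Figure D3:**
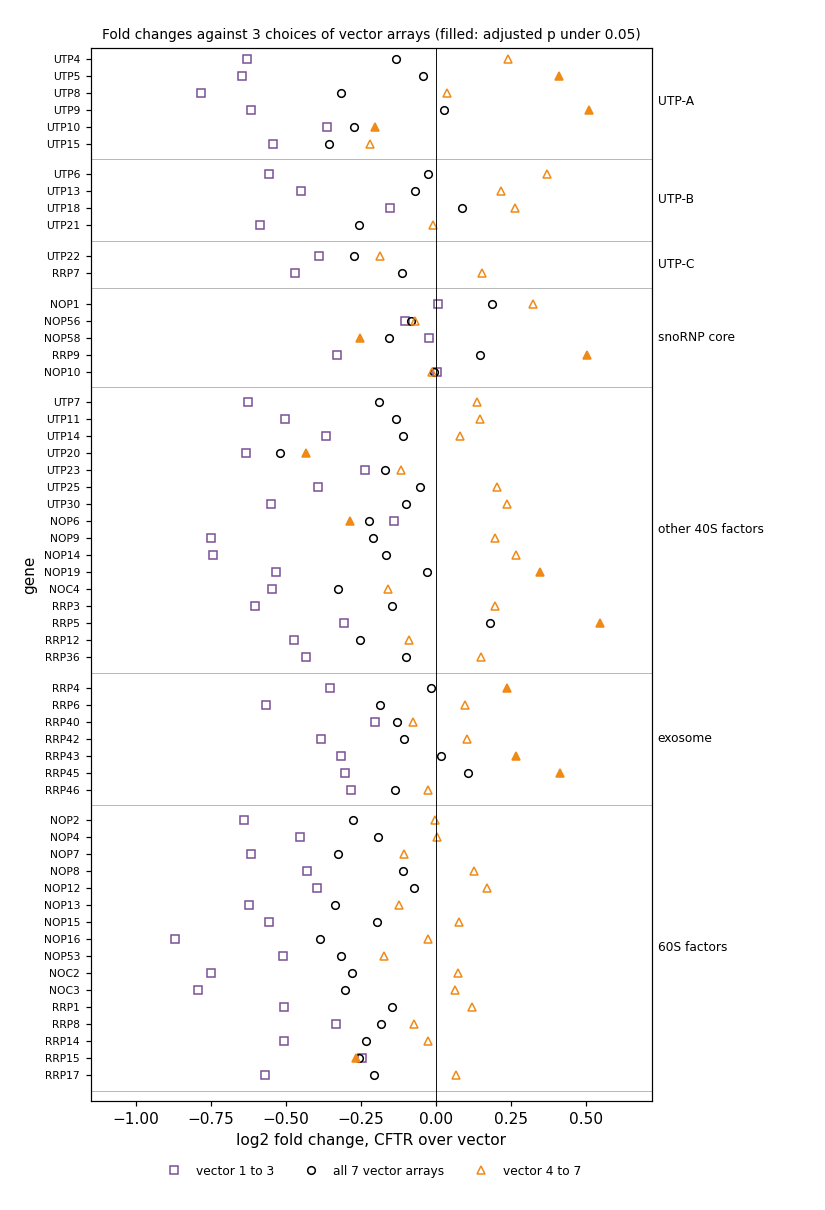
Log2 fold change of CFTR over vector for each of the 56 factors (rows, grouped by role) against vector replicates 1 to 3, all 7 vector arrays and vector replicates 4 to 7; filled symbols have an adjusted p under 0.05. No estimate passes against replicates 1 to 3 or all 7 arrays, and 13 pass against replicates 4 to 7, 8 higher and 5 lower; the 3 estimates of a factor share the CFTR arrays.

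UTP-A binds the start of the nascent rRNA precursor as the first complex of the processome. Its subunit UTP9 read -0.09, -0.06, -0.14 and -0.21 in CFTR replicates 1 to 4, and -1.05, -0.41 and 0.93 in the lowest, median and highest vector arrays. The CFTR arrays were close together, below vector replicates 1 and 2 and above replicates 3 to 7. UTP9 had the widest range of the 56 factors over the 11 arrays, 1.98 on the log2 scale. Its difference was 0.03 (SE 0.33, adjusted p = 0.97) against all vector arrays, -0.61 (SE 0.27, adjusted p = 0.18) against replicates 1 to 3 and 0.51 (SE 0.13, adjusted p = 0.011) against replicates 4 to 7, where it rose. UTP5, another subunit, also rose against replicates 4 to 7 (0.41, SE 0.13, adjusted p = 0.027), whereas UTP10, a large scaffold subunit, fell (-0.20, SE 0.06, adjusted p = 0.021). UTP10 read 0.99, 1.12, 1.05 and 0.99 in CFTR replicates 1 to 4, and 0.85, 1.29 and 1.71 in the lowest, median and highest vector arrays. Its CFTR arrays overlapped the vector range at the low end, where vector replicate 3 was the lowest array of all. The UTP-A subunit with the smallest p against all vector arrays was UTP15 (-0.36, SE 0.17, adjusted p = 0.29). Over the 6 subunits among the 56 factors, with UTP4 and UTP8, the differences lay between -0.36 and 0.03, with a median of -0.20.

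UTP-B joins next and contacts U3 and the 5′ spacer of the precursor. None of its 4 subunits passed against any of these choices of vector arrays. UTP18, which recruits the exosome helicase, stood at 0.09 (SE 0.15, adjusted p = 0.80) against all vector arrays, -0.15 against replicates 1 to 3 and 0.27 (SE 0.11, adjusted p = 0.072) against replicates 4 to 7. UTP6 read -0.42, -0.45, -0.53 and -0.63 in CFTR replicates 1 to 4, and -1.34, -0.65 and 0.49 in the lowest, median and highest vector arrays. Its lowest array was vector replicate 4 and its highest were vector replicates 1 and 2, with the CFTR arrays between. UTP21 stood at -0.26 (SE 0.23, adjusted p = 0.59). The median of the 4 subunits, -0.05, was 0.02 after quantile normalization and 0.03 after median centring. UTP-C contains casein kinase 2 besides UTP22 (-0.27, SE 0.15, adjusted p = 0.34) and RRP7 (-0.11, SE 0.20, adjusted p = 0.80), neither of which passed.

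The snoRNP core proteins varied less across arrays, with the exception of RRP9. Apart from RRP9 they were also the brightest of the 56 in both group means. The part of signal level in their ranges was not tested. NOP1, the yeast fibrillarin, is the methyltransferase of the box C/D particles, NOP56 and NOP58 are their scaffold, and NOP10 belongs to the box H/ACA particles that guide pseudouridylation. The ranges over the 11 arrays were 0.81 for NOP1, 0.45 for NOP56, 0.38 for NOP58 and 0.34 for NOP10, and 1.56 for RRP9, a protein specific to the U3 particle. NOP1, NOP56, NOP58 and NOP10 were among the 7 factors in which vector replicates 1 and 2 were not the 2 highest arrays; the others were NOP6, RRP40 and RRP15. NOP58 read 2.47, 2.44, 2.50 and 2.39 in CFTR replicates 1 to 4, and 2.46, 2.53 and 2.77 in the lowest, median and highest vector arrays. Its vector replicates 5 to 7 were above all other arrays, and vector replicates 1 to 3 overlapped the CFTR arrays. NOP58 stood at -0.15 (SE 0.08, adjusted p = 0.34) against all vector arrays and fell against replicates 4 to 7 (-0.25, SE 0.06, adjusted p = 0.010).

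NOP1 read 2.95, 2.90, 2.92 and 3.03 in CFTR replicates 1 to 4, and 2.22, 2.79 and 3.01 in the lowest, median and highest vector arrays. The low value is vector replicate 4, and vector replicates 1 and 2 overlapped the CFTR arrays. Its difference of 0.19 (SE 0.12, adjusted p = 0.45) was the highest of the 56 against all vector arrays, and it missed the threshold against replicates 4 to 7 (0.32, SE 0.12, adjusted p = 0.0548). RRP9 read 0.14, 0.11, 0.14 and -0.14 in CFTR replicates 1 to 4, and -0.90, -0.22 and 0.66 in the lowest, median and highest vector arrays. Its CFTR arrays lay below vector replicates 1 and 2 and above replicates 4 to 7, and it rose against replicates 4 to 7 (0.50, SE 0.15, adjusted p = 0.022). NOP56 (-0.08, SE 0.09, adjusted p = 0.65) and NOP10 (-0.0048, SE 0.07, adjusted p = 0.98) did not pass; the 95% interval of NOP10 ran from -0.16 to 0.15.

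**Figure D4:**
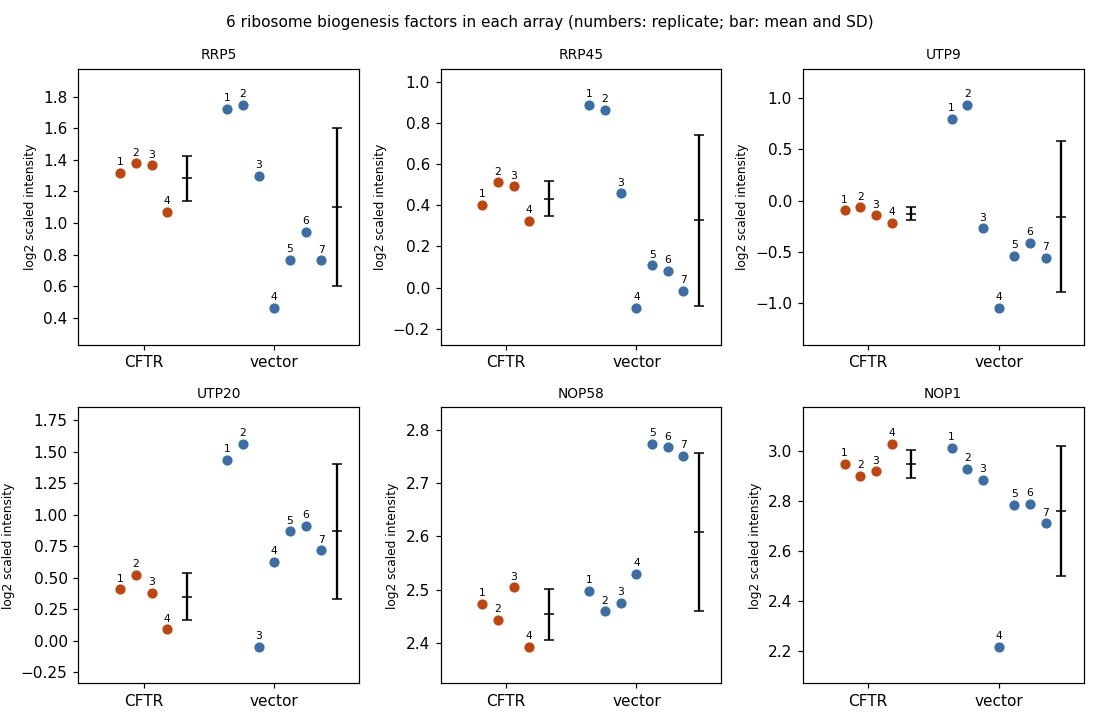
Log2 scaled intensity of 6 factors in each array; points are arrays with their replicate number (CFTR left, vector right), and bars give the mean and SD of each group. RRP5, RRP45 and UTP9 have their CFTR arrays below vector replicates 1 and 2 and above replicates 4 to 7, UTP20 has only vector replicate 3 below its CFTR arrays, and NOP1 and NOP58 have vector replicates 1 and 2 beside the CFTR arrays.

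Among the 16 other factors of the 40S subunit, RRP5 and UTP20 passed in opposite directions against vector replicates 4 to 7. RRP5, a large RNA-binding protein needed for both subunits, read 1.32, 1.38, 1.37 and 1.07 in CFTR replicates 1 to 4, and 0.46, 0.94 and 1.75 in the lowest, median and highest vector arrays. Its CFTR arrays lay below vector replicates 1 and 2, around replicate 3 and above replicates 4 to 7. It rose against replicates 4 to 7 1.46-fold (0.55, SE 0.11, adjusted p = 0.0045) and stood at 0.18 (SE 0.23, adjusted p = 0.71) against all vector arrays. UTP20, a large HEAT-repeat protein of the processome, read 0.41, 0.52, 0.38 and 0.09 in CFTR replicates 1 to 4, and -0.05, 0.87 and 1.56 in the lowest, median and highest vector arrays. Vector replicate 3 lay below its CFTR arrays and the other 6 vector arrays lay above them. UTP20 had the lowest difference of the 56 against all vector arrays (-0.52, SE 0.25, adjusted p = 0.30, 95% interval -1.06 to 0.03), and it fell against replicates 4 to 7 (-0.43, SE 0.10, adjusted p = 0.0095) and without vector replicate 3 (-0.67, SE 0.19, adjusted p = 0.0496).

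NOP19 rose against replicates 4 to 7 (0.35, SE 0.07, adjusted p = 0.0053), but its mean over the 11 arrays lay under -1.17, so that its size is uncertain. That limit is the level that 95% of probe sets not matched to a single gene stayed below. Any probe sets annotated to several genes counted as unmatched, so the limit may hold signal from genes. NOP8, a 60S factor (-0.11, SE 0.19, adjusted p = 0.79), and RRP36, an early 40S factor (-0.10, SE 0.23, adjusted p = 0.86), lay under the same limit and did not pass. NOP6 fell against replicates 4 to 7 (-0.29, SE 0.10, adjusted p = 0.0482). NOP9, an RNA-binding protein, and NOP14, which pairs with NOC4, had wide ranges of 1.81 and 1.80. In both, vector replicates 1 and 2 were at 0.45 or more and every other array was at -0.56 or less. NOC4 stood at -0.32 (SE 0.16, adjusted p = 0.32) against all vector arrays. The remaining members of the class (UTP7, UTP11, UTP14, UTP23, UTP25, UTP30, RRP3 and RRP12) passed in none of these comparisons. Of all 16, 15 were below 0 against all vector arrays, with a median of -0.16, and 11 were above 0 against replicates 4 to 7, with a median of 0.15.

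The exosome degrades RNA through a ring of subunits with a cap. Of its 7 subunits here, 3 rose against vector replicates 4 to 7 and none fell, beside 43.9% of all genes called (26.9% higher). These were the ring subunits RRP45 (0.41, SE 0.07, adjusted p = 0.0017) and RRP43 (0.27, SE 0.07, adjusted p = 0.017) and the cap subunit RRP4 (0.24, SE 0.08, adjusted p = 0.043). RRP43 and RRP4, like UTP8, UTP13, NOP56, NOP10, TIF6 and RRN3 elsewhere, were picked for mention after their values were seen. RRP45 read 0.40, 0.51, 0.49 and 0.32 in CFTR replicates 1 to 4, and -0.10, 0.11 and 0.89 in the lowest, median and highest vector arrays. The CFTR arrays were near vector replicate 3 (0.46), below replicates 1 and 2 and above replicates 4 to 7. Against all vector arrays RRP45 (0.11, SE 0.19, adjusted p = 0.81), RRP43 (0.02, SE 0.19, adjusted p = 0.97) and RRP4 (-0.01, SE 0.20, adjusted p = 0.98) did not pass. The cap subunit RRP40 (-0.13, SE 0.08, adjusted p = 0.42), the ring subunits RRP46 (-0.14, SE 0.11, adjusted p = 0.54) and RRP42 (-0.10, SE 0.16, adjusted p = 0.77) and the nuclear exonuclease RRP6 did not pass in any of these comparisons. The median of the 7 was -0.10 against all vector arrays and 0.10 against replicates 4 to 7.

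The 16 factors of the 60S subunit were all below 0 against all vector arrays, and 15 of them after median centring. Their differences ran from -0.39 to -0.07 with a median of -0.24, and none passed. Against replicates 4 to 7, 8 were above 0 and 8 below. NOP16 had the lowest difference of the class (-0.39, SE 0.29, adjusted p = 0.50). It read -0.32, -0.52, -0.49 and -0.69 in CFTR replicates 1 to 4, and -0.79, -0.42 and 0.77 in the lowest, median and highest vector arrays. Vector replicates 1 and 2 lay far above the CFTR arrays, and the other vector arrays ran from just above to just below them. The difference of NOP16 was -0.87 (SE 0.29, adjusted p = 0.18) against replicates 1 to 3 and -0.03 (SE 0.12, adjusted p = 0.87) against replicates 4 to 7. RRP15, which acts in early 60S precursors, was the 1 factor of the class to pass, falling against replicates 4 to 7 (-0.26, SE 0.09, adjusted p = 0.041). It read 0.33, 0.33, 0.26 and 0.08 in CFTR replicates 1 to 4, and 0.12, 0.58 and 0.75 in the lowest, median and highest vector arrays. Vector replicates 3 and 4 overlapped its CFTR arrays and the other 5 lay above. RRP15 kept a like difference against all vector arrays (-0.26, SE 0.12, adjusted p = 0.28) and against replicates 1 to 3 (-0.25, SE 0.16, adjusted p = 0.27). It lies next to NOC4 on chromosome XVI in the R64 gene table, as the 1 pair of neighbouring genes among the 56.

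NOP53, which docks the exosome helicase on 60S precursors, stood at -0.32 (SE 0.18, adjusted p = 0.36) against all vector arrays, and NOP7, a partner of ERB1, at -0.33 (SE 0.21, adjusted p = 0.44). NOP13 stood at -0.34 (SE 0.24, adjusted p = 0.48) and NOP2, a methyltransferase of the large rRNA, at -0.28 (SE 0.23, adjusted p = 0.56). NOP2 read 1.03, 1.08, 1.03 and 0.82 in CFTR replicates 1 to 4, and 0.84, 1.03 and 1.99 in the lowest, median and highest vector arrays. Here too vector replicates 1 and 2 were far above, CFTR replicates 1 to 3 fell among the other vector arrays, and CFTR replicate 4 was the lowest array. The remaining factors (NOP4, NOP12, NOP15, NOC2, NOC3, RRP1, RRP8, RRP14 and RRP17) passed in none of these comparisons.

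The 13 calls against replicates 4 to 7 differed in how they held when 1 of the 8 arrays was left out. UTP9, RRP5, RRP45, RRP43 and NOP19 (higher) and UTP20 and NOP58 (lower) passed in all 8 refits. UTP5 and RRP9 passed in 6, UTP10 in 4, RRP4 and RRP15 in 2 and NOP6 in 1. The count of factors called was 8 without CFTR replicate 2 or 3 (with 35.2% and 35.8% of all genes called), and 21, 9 higher and 12 lower, without vector replicate 4 (with 50.3%). Adding the 1 array vector replicate 3 back to the controls ended 11 of the 13 calls, all but those of UTP9 and RRP43. Of the 7 that had passed in all refits, that comparison gave RRP5 0.44 (SE 0.15, adjusted p = 0.065), RRP45 0.33 (SE 0.11, adjusted p = 0.058) and NOP19 0.28 (SE 0.09, adjusted p = 0.055). It gave NOP58 -0.21 (SE 0.07, adjusted p = 0.071) and UTP20 -0.27 (SE 0.19, adjusted p = 0.31). These refits were chosen after seeing the data. Vector replicates 5 to 7 are nearly alike (SD of differences 0.10 to 0.13 over all genes), and no refit of this comparison averaged them. Passing every refit is therefore a limited check.

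The wider list gave a like picture. Of its 116 measured genes none passed against all vector arrays (limma), 9 (7.76%) had an unadjusted p under 0.05, beside 18.2% of all genes, and the median difference was -0.13. Against vector replicates 4 to 7, 14 rose and 11 fell (21.6%, beside 43.9% of all genes). Against replicates 3 to 7, 7 rose and 2 fell (7.76%, beside 18.4%). By class, medians against all vector arrays were 0.02 for 11 genes of RNA polymerase I and its factors and 0.07 for 4 snoRNP proteins. They were -0.19 for 33 factors of the 40S subunit and -0.03 for 11 exosome genes and cofactors. The median was -0.17 for 46 genes listed under the 60S subunit, among them BUD23, a 40S factor. RPA14, a subunit of RNA polymerase I, stood at 0.26 (SE 0.12, adjusted p = 0.28). It rose against replicates 4 to 7 (0.41, SE 0.10, adjusted p = 0.011) and replicates 3 to 7 (0.36, SE 0.11, adjusted p = 0.045). RPA190, the largest subunit, stood at -0.21 (SE 0.11, adjusted p = 0.33). RRN3, the initiation factor of RNA polymerase I, stood at 0.17 (SE 0.17, adjusted p = 0.62) and rose against replicates 4 to 7 (0.39, SE 0.05, adjusted p = 0.00097) and replicates 3 to 7 (0.36, SE 0.06, adjusted p = 0.017). It read -0.99, -0.99, -1.13 and -0.90 in CFTR replicates 1 to 4, and -1.43, -1.34 and -0.52 in the lowest, median and highest vector arrays, mostly near or under the background limit.

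Of the snoRNP proteins in the wider list, GAR1 of the box H/ACA particles stood at 0.24 (SE 0.11, adjusted p = 0.27) and rose against replicates 4 to 7 (0.31, SE 0.11, adjusted p = 0.045), and SNU13 of the box C/D particles stood at 0.09 (SE 0.09, adjusted p = 0.65). The helicase HAS1 (-0.42, SE 0.19, adjusted p = 0.26) and the GTPase BMS1 (-0.36, SE 0.18, adjusted p = 0.31) of the 40S pathway, and DBP6 (-0.40, SE 0.14, adjusted p = 0.16), a helicase, and EBP2 (-0.47, SE 0.18, adjusted p = 0.21) of the 60S pathway, did not pass against all vector arrays. BMS1 (-0.26, SE 0.09, adjusted p = 0.037), DBP6 (-0.29, SE 0.09, adjusted p = 0.031) and EBP2 (-0.36, SE 0.07, adjusted p = 0.0041) fell against replicates 4 to 7. Against replicates 3 to 7, BMS1 (adjusted p = 0.29), DBP6 (adjusted p = 0.064), EBP2 (adjusted p = 0.11) and GAR1 (adjusted p = 0.18) did not pass (limma). PAP2, the poly(A) polymerase of the TRAMP complex, stood at -0.24 (SE 0.15, adjusted p = 0.43). MPP6, an exosome cofactor, stood at 0.54 (SE 0.37, adjusted p = 0.47), with CFTR replicate 4 far from the other CFTR arrays. TIF6, an anti-association factor of the 60S subunit, stood at 0.16 (SE 0.08, adjusted p = 0.32). It was the 1 gene of the 116 whose CFTR arrays all exceeded every vector array, a pattern seen in 2.4% of all genes. The margin was small, with 2.4648 in the lowest CFTR array and 2.4634 in the highest vector array.

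Among the regulators in the wider list, 3 repressors had the lowest differences. DOT6 and TOD6 bind the PAC promoter element of ribosome biogenesis genes, STB3 binds the RRPE element, and all 3 repress those genes when TOR is inactive. DOT6 read 1.02, 1.17, 1.15 and 0.95 in CFTR replicates 1 to 4, and 1.25, 1.52 and 1.81 in the lowest, median and highest vector arrays. All CFTR arrays lay below all vector arrays, as in no other gene of the wider list and in 3.34% of all genes. DOT6 missed the threshold against all vector arrays (-0.42, SE 0.11, adjusted p = 0.095) and fell against replicates 4 to 7 (-0.57, SE 0.08, adjusted p = 0.00098), against replicates 3 to 7 (-0.51, SE 0.09, adjusted p = 0.017) and without vector replicate 3 (-0.44, SE 0.12, adjusted p = 0.041). TOD6 read -0.30, -0.48, -0.38 and -0.64 in CFTR replicates 1 to 4, and -0.56, 0.04 and 0.35 in the lowest, median and highest vector arrays. Vector replicate 3 was inside the CFTR range and the other 6 vector arrays lay above it. TOD6 (-0.49, SE 0.16, adjusted p = 0.14) and STB3 (-0.41, SE 0.13, adjusted p = 0.13) missed the threshold against all vector arrays, and STB3 passed after quantile normalization and after median centring. Both fell against replicates 4 to 7 at -0.49 (SE 0.09, adjusted p = 0.0038) for TOD6 and -0.35 (SE 0.07, adjusted p = 0.0054) for STB3. Like DOT6, both also fell without vector replicate 3, TOD6 at -0.59 (SE 0.115, adjusted p = 0.012) and STB3 at -0.47 (SE 0.12, adjusted p = 0.032). Against replicates 3 to 7 TOD6 did not pass, at -0.37 (SE 0.15, adjusted p = 0.094), and STB3 fell, at -0.29 (SE 0.09, adjusted p = 0.0482). STB3 averaged -1.17 in CFTR arrays, at the background limit, and -0.76 in vector arrays. None of the 3 passed against vector replicates 1 to 3, each with an adjusted p of 0.18 (limma). There DOT6 stood at -0.21 (SE 0.08), TOD6 at -0.49 (SE 0.23) and STB3 at -0.49 (SE 0.17). DOT6 also differed within the vector group, at 0.36 (SE 0.09, adjusted p = 0.031, limma) in replicates 4 to 7 relative to replicates 1 to 3. TOD6 (adjusted p = 0.98) and STB3 (adjusted p = 0.56) did not pass in that comparison. The fall against replicates 4 to 7 was not limited to the repressors. The kinase gene TOR1, mentioned after its values were seen, fell there too (-0.26, SE 0.05, adjusted p = 0.0026, limma). It did not pass against all vector arrays (-0.13, SE 0.10, adjusted p = 0.55) or replicates 3 to 7 (adjusted p = 0.11). TOR1 also differed between the vector ranges (0.31, SE 0.09, adjusted p = 0.040).

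Of the positive regulators, SFP1 and SCH9 were highest in vector replicates 1 and 2, as were 47.8% of all genes, and FHL1 was not. SFP1, an activator of ribosome biogenesis genes, read -0.17, -0.15, -0.26 and -0.20 in CFTR replicates 1 to 4, and -0.37, -0.22 and 0.62 in the lowest, median and highest vector arrays. Vector replicates 1 and 2 (0.62 and 0.60) stood above the other 9 arrays, as in most of the 56 factors, and the remaining vector arrays overlapped the CFTR arrays. SCH9, a kinase that carries the TOR signal to these genes, was at 0.45 to 0.57 in CFTR arrays, and in vector arrays at 1.12 and 1.14 in replicates 1 and 2 and at 0.30 to 0.43 in the others. Neither SFP1 (-0.18, SE 0.20, adjusted p = 0.66) nor SCH9 (-0.09, SE 0.17, adjusted p = 0.82) passed. IFH1 (0.03, SE 0.09, adjusted p = 0.88) and FHL1 (-0.04, SE 0.12, adjusted p = 0.89), which act together at ribosomal protein genes, did not pass either. FHL1 went the other way from SFP1 and SCH9, with vector replicate 2 its lowest array (-0.49) and vector replicate 1 at -0.33. It was higher in vector replicates 4 to 7 than in replicates 1 to 3 (0.375, SE 0.09, adjusted p = 0.026, limma). In that comparison SFP1 (-0.62, SE 0.20, adjusted p = 0.0504) and SCH9 (-0.43, SE 0.20, adjusted p = 0.12) did not pass.

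**Figure D5:**
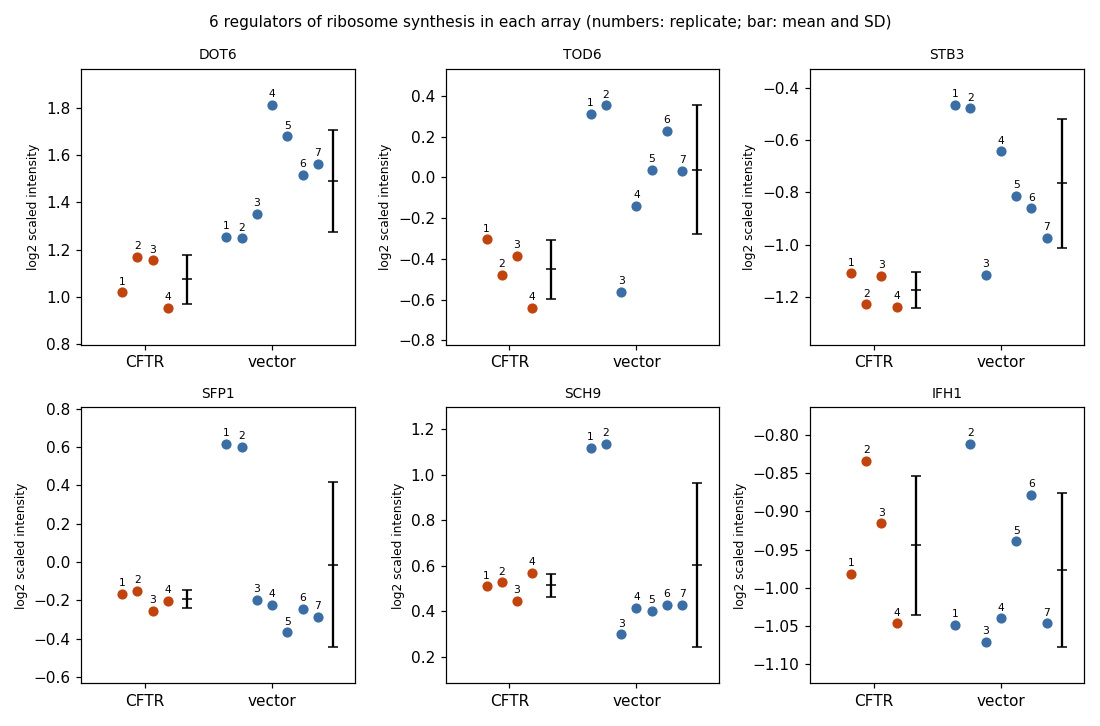
Log2 scaled intensity of 6 regulators of ribosome synthesis in each array; points are arrays with replicate numbers (CFTR left, vector right), and bars show group mean and SD. All CFTR arrays of DOT6 lie below all vector arrays, TOD6 and STB3 have only vector replicate 3 within the CFTR range, and SFP1 and SCH9 are highest in vector replicates 1 and 2.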

How the data were processed

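Affymetrix arrays measured RNA in 4 CFTR and 7 vector samples. Per the labels' protocols, RNA was extracted with hot phenol and labelled with a 3′ IVT kit. The deposited table holds linear probe set intensities. As read from the values, each array averages 1, so the authors' values carry no information on total RNA. The upstream software is not given in the sources used here.

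Of 10715 probe sets, 5498 matched a single gene of the R64 table through the platform annotation; the brightest per gene was kept and log2 was taken without a floor. Groups were compared in limma 3.58.1 (R 4.3.3) by lmFit and trended eBayes, adjusting over all 5449 genes by Benjamini-Hochberg at 0.05. In simulated data with the pooled SD of each gene, the procedure recovered 47.8% of log2 changes of 0.5. It recovered 86.6% of changes of 1 and 100% of changes of 2, and 11 of 167 calls were false. The simulated arrays were independent, without near-copies or code ranges, so the simulation does not test the procedure under the structure of these arrays. The background limit is the 95th percentile of the mean level of the 5217 unmatched probe sets. Alternatives were 22 settings (scaling, filter, floor, eBayes options, probe sets, choice of vector arrays and leaving out each array); averaging near-copy arrays (vector replicates 1 with 2 and 5 with 7), vector replicates 3 to 7, the comparison of vector ranges and the refits that leave out 1 array from it or from CFTR against vector replicates 4 to 7 were added after seeing the data. The members and lists were chosen with earlier results of these data known. Named genes are called members; per class the 2 smallest p and the brightest; the 5 highest and 5 lowest differences; up to 10 without overlap; the 5 largest ranges; the 4 smallest p against either vector range and without vector replicate 3; members under the background limit; 7 regulators; and, of the wider list, called genes and the 2 smallest p per class. A further 8 were chosen after seeing values. TOR1 was mentioned besides, and its sign under the alternatives is not listed. The number of arrays limits the precision. Plots used matplotlib 3.10.9.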

Additional observations from a re-analysis of the deposited data

Results flagged for a closer look

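Among 150 groups of arrays tested (75 genes in CFTR and in vector arrays), 6 held 1 array far from the others by Dixon's test, where chance flags about 1 in 20 groups. MPP6 read 0.79 in CFTR replicate 4 and -1.36 to -1.23 in the other CFTR arrays. UTP8 read -0.27 in CFTR replicate 2, above the other CFTR arrays at -0.43 to -0.41. UTP13 read -0.26 in CFTR replicate 4, below the other CFTR arrays at 0.14 to 0.19. RRP9 read -0.14 in CFTR replicate 4, below the other CFTR arrays at 0.11 to 0.14. NOP1 read 2.22 and TIF6 2.03 in vector replicate 4, in each case the lowest of the vector arrays, and vector replicate 4 was also the lowest in the mean of the 56 factors.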

How the results depend on the processing

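No factor was called after either other scaling, with eBayes untrended or robust, with dim genes filtered, with probe sets averaged, with the floor or with near-copy arrays averaged. The whole table had 50 calls, and dim filter, floor, probe set rule and eBayes options turned no sign among the named genes. After quantile normalization, 200 genes of the whole table and 1 gene of the wider list were called. The sign turned for the UTP-B median (0.020), FHL1 (0.053), NOP19 (0.053), RRP4 (0.060), UTP5 (0.016) and UTP6 (0.047). After median centring, 173 genes of the whole table and 1 gene of the wider list were called. The sign turned for the UTP-B median (0.027), the snoRNP core median (0.069), FHL1 (0.034), NOP10 (0.069), NOP19 (0.044), RRP4 (0.059), UTP13 (0.0051), UTP5 (0.032) and UTP6 (0.048). Against vector replicates 1 to 3, 1 gene of the whole table was called and the UTP-B median moved to -0.50. The sign turned for FHL1 (0.17), NOP10 (0.0051), RRN3 (-0.12), RRP43 (-0.32), RRP45 (-0.30), RRP5 (-0.31), RRP9 (-0.33), UTP18 (-0.15) and UTP9 (-0.61). Against vector replicates 4 to 7, 13 factors, 2393 genes of the whole table and 25 genes of the wider list were called. The sign turned for the members median (0.079), the UTP-A median (0.14), the UTP-B median (0.24), the other 40S factors median (0.15), the exosome median (0.10), NOP14 (0.27), NOP19 (0.35), NOP8 (0.13), NOP9 (0.20), RRP36 (0.15), RRP4 (0.24), RRP42 (0.10), RRP7 (0.15), SCH9 (0.095), SFP1 (0.086), SNU13 (-0.026), UTP13 (0.22), UTP5 (0.41), UTP6 (0.37) and UTP8 (0.036). With near-copy arrays averaged, 1 gene of the whole table was called. The sign turned for the UTP-B median (0.057), the snoRNP core median (0.0092), NOP10 (0.0092), NOP19 (0.050), RRP4 (0.049), UTP13 (0.024), UTP5 (0.089) and UTP6 (0.090). Against vector replicates 3 to 7, 2 factors, 1002 genes of the whole table and 9 genes of the wider list were called. The sign turned for the members median (0.093), the UTP-A median (0.15), the UTP-B median (0.22), the other 40S factors median (0.15), the exosome median (0.10), the 60S factors median (0.021), NOP14 (0.27), NOP19 (0.28), NOP2 (0.010), NOP8 (0.091), NOP9 (0.20), RRP36 (0.14), RRP4 (0.22), RRP42 (0.074), RRP7 (0.12), SCH9 (0.12), SFP1 (0.069), SNU13 (-0.0041), UTP13 (0.21), UTP21 (0.022), UTP5 (0.35), UTP6 (0.33) and UTP8 (0.035). When 1 array was left out, 2 to 521 genes of the whole table, 0 to 1 of the factors (1 without vector replicate 3) and 0 to 5 genes of the wider list were called; the count of factors was 8 to 21 against vector replicates 4 to 7 and 0 to 49 between the vector ranges. Signs turned, over these refits, in the snoRNP core median (-0.041 to 0.016), FHL1 (-0.092 to 0.020), NOP10 (-0.041 to 0.016), IFH1 (-0.0049 to 0.066), the UTP-B median (-0.18 to 0.098), NOP19 (-0.12 to 0.10), RRP4 (-0.084 to 0.091), UTP13 (-0.19 to 0.060), UTP5 (-0.18 to 0.13), UTP6 (-0.17 to 0.14), NOP14 (-0.27 to 0.027), RRP36 (-0.22 to 0.029), RRP43 (-0.058 to 0.12) and UTP9 (-0.12 to 0.21). The cause of these moves was not tested. No paired analysis was possible because the CFTR labels carry no replicate number. Precision is limited by 4 and 7 arrays, by the spread of the vector arrays and, for NOP19, NOP8 and RRP36, by signal near background. Code range and CFTR cannot be told apart.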
